A study of Mus musculus with 42 samples.

Results

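Havcr1, Lcn2, Spp1, Clu, Vcam1, Sox9, Krt8, Krt18, Krt19 and Krt20 are genes that kidney tubule cells express at a higher level after injury or when they lose their mature state. These 10 genes were taken by name from the 54532 genes of the whole-kidney RNA tables, and all of them were described in each of the 14 groups of 3 libraries.

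Injured tubule cells, above all those of the proximal tubule, lay down transport functions and take up a program of repair. Havcr1 (kidney injury molecule 1, a phagocytic receptor) and Lcn2 (neutrophil gelatinase-associated lipocalin, an iron-siderophore carrier) are the markers most often measured in urine. Spp1 (osteopontin) and Clu (clusterin) are secreted glycoproteins of stressed tubules, Vcam1 is an adhesion molecule of tubule cells that fail to recover, Sox9 is a transcription factor of regenerating tubule cells, and the keratins build the intermediate filaments of simple epithelia.

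The study compared mouse kidneys that had lost Tsc2, an inhibitor of the kinase complex mTORC1, kidneys that had lost the transcription factor Tfeb, and kidneys that had lost both (DKO). In the Cagg cohort the Cre recombinase was a whole-body CaggCreERT2 that tamoxifen reached through the milk of injected mothers, and kidneys were taken at P30. In the KSP cohort the Cre was driven by the cadherin 16 promoter, which is active in tubular epithelium, and kidneys were taken at P50. In the KSP drug cohort control, Tsc2 KO and DKO mice received vehicle or rapamycin, an mTORC1 inhibitor, intraperitoneally at 1 mg/kg, 3 times a week from day 25 for 11 injections, also with kidneys at P50. The groups of the Cagg and KSP cohorts were control, Tsc2 KO, Tfeb KO and DKO. Knockout mice carried floxed alleles of Tsc2, Tfeb or both together with Cre, and all mice had a C57BL/6 background. The labels give all controls as wild type. The study's text and captions describe KSP controls as Cre-negative, and describe Cagg controls in some passages as carrying Cre and in others as lacking it. The labels give the cell type as mixed, and in whole-kidney RNA fewer cells of a type and less RNA per cell cannot be told apart. In the labels only the replicate numbers set the 3 libraries of a group apart as animals. The sex genes given below also differ between libraries within Cagg Tsc2 KO and within Cagg DKO.

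Libraries held 14926050 to 22807605 reads on genes, and levels are given as FPKM, the fragments scaled to gene length and to the size of the library. Tsc2 was at 8.18 to 10.6 FPKM in the control libraries and at 3.55 to 6.503 in libraries labelled Tsc2 KO or DKO, so it was lower in each of these cohorts without reaching 0. DKO libraries held more Tsc2 than Tsc2 KO libraries, without overlap. They were at 4.82 to 5.64 against 4.06 to 4.55 FPKM (Cagg) and 5.17 to 5.81 against 3.545 to 4.365 (KSP). With vehicle they were at 5.53 to 6.41 against 3.80 to 4.47. Rapamycin-treated Tsc2 KO libraries held 5.06 to 6.503 FPKM. The part of these differences in the comparisons below was not tested. Tfeb was lower in every Cagg library labelled Tfeb KO or DKO, at 1.99 to 3.73 FPKM, than in any Cagg control, at 4.57 to 8.02. In the KSP Tfeb KO libraries it was at 4.32, 4.80 and 5.25 FPKM against 5.85, 6.05 and 6.24 in the controls, a small difference. The libraries labelled KSP DKO had 4.09, 3.08 and 2.65 FPKM of Tfeb against 3.96, 6.12 and 3.66 in KSP Tsc2 KO, so that DKO replicate 1 lay within the Tsc2 KO range and Tfeb does not check the label of that library. By Xist and Y-linked genes the 3 Cagg controls were male and the 3 Cagg Tfeb KO mice female, Cagg Tsc2 KO had 2 female and 1 male mice and Cagg DKO 1 female and 2 male, while all KSP mice were female. Sex and genotype thus partly coincide in the Cagg comparisons. KSP DKO replicate 1 stood apart, with a summed level of 12 macrophage markers of 805 FPKM against 79.2 and 107 in the other DKO libraries, and a summed level of 12 neutrophil markers of 49.4 FPKM against 3.25 and 2.55. The part of these cells in the values of that library was not tested.

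**Figure D1:**
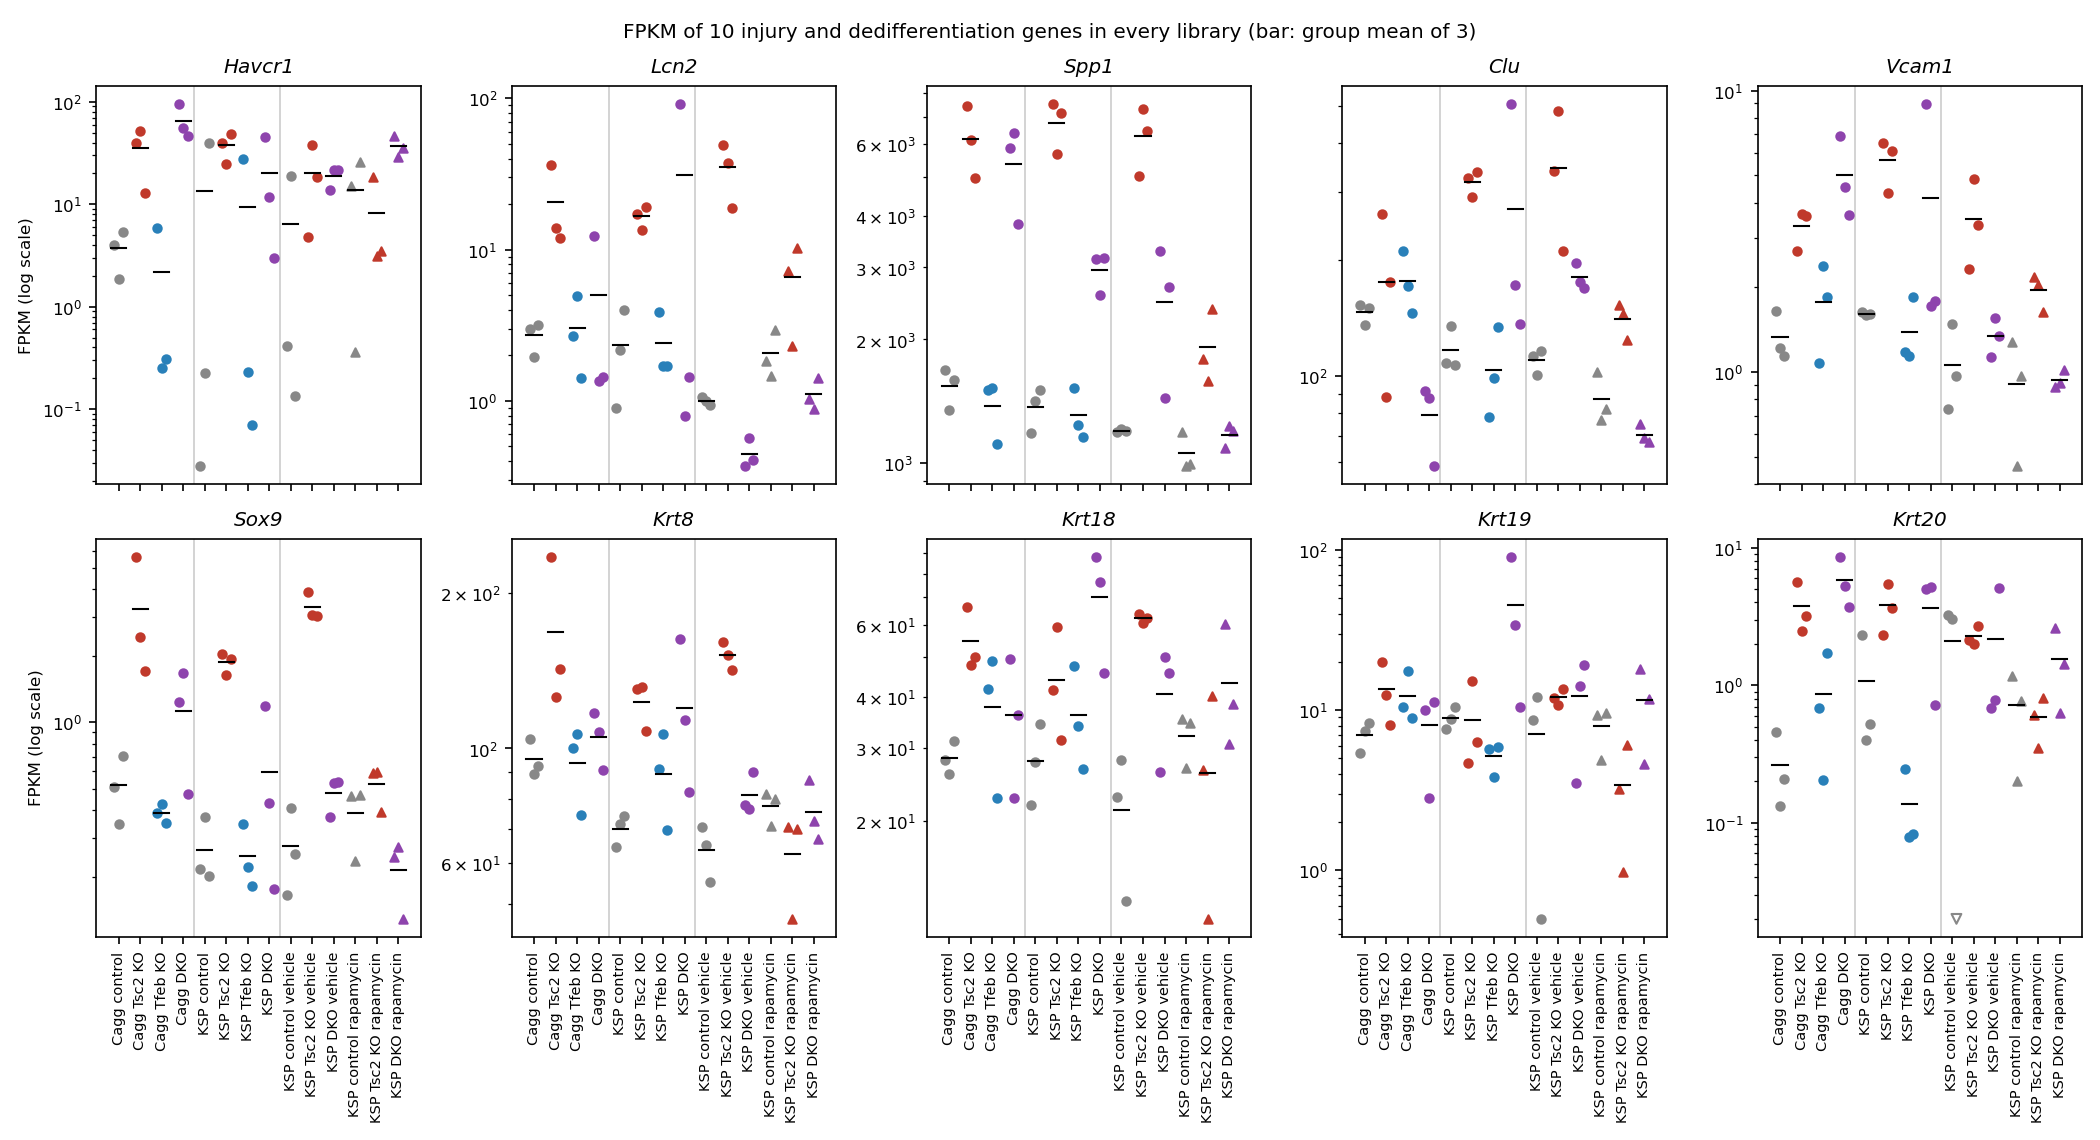
FPKM of the 10 genes on a log axis in each of the 14 groups, 1 point per library and a bar at the mean of the 3 libraries (grey control, red Tsc2 KO, blue Tfeb KO, purple DKO, triangles rapamycin). Spp1 in all 3 sets of Tsc2 KO kidneys without rapamycin lies at 4952 to 7528 FPKM, above every control library, while Havcr1 spans 0.03 to 39.8 FPKM within the KSP controls. The open triangle marks a Krt20 value of 0.

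The first question is which of these genes differ when Tsc2 is lost. The genes called higher in Tsc2 KO than in control kidneys, by an adjusted p not above 0.05 together with an average level of 5 FPKM or more in at least 1 of the groups compared, were 5 of 10 in the Cagg cohort (background 23% of the genes that reach this level), 4 of 10 in the KSP cohort (background 9.42%) and 5 of 10 in the KSP drug cohort with vehicle (background 23.8%). Spp1 and Krt8 were called in all 3 cohorts, and 0 of 10 were lower in any (background 15.5%, 8.74% and 24.6%), also at an unadjusted p of 0.05 by edgeR and by DESeq2. All Tsc2 KO libraries lay above all controls for 8 of 10 genes in the Cagg cohort (background 19.5%), 7 of 10 in the KSP cohort (background 19.7%) and 7 of 10 in the drug cohort (background 24.5%). The median log2 fold change of the 10 genes was 1.72 in the Cagg cohort, 1.65 in the KSP cohort and 1.66 in the drug cohort, beside 0.00, -0.01 and 0.01 over all genes tested. Leaving out any 1 of the 6 libraries compared in the KSP cohort left 1 or 2 calls, and the Cagg count was 3 without control replicate 2, without Tsc2 KO replicate 1 or with sex in the fit. The summed level of 20 proximal tubule markers was 2393 to 7156 FPKM in Cagg Tsc2 KO libraries against 16140 to 18010 in controls, 3652 to 7095 against 16130 to 19500 in the KSP cohort, and 1568 to 2614 against 14320 to 18690 in the drug cohort. Of the 20 markers 15, 10 and 18 were called lower in the 3 cohorts, and of 12 macrophage markers 4, 1 and 7 were called higher, with sums of 186.9 to 234.6 FPKM against 106.0 to 140.6, 127.8 to 210.9 against 65.1 to 93.4, and 137.5 to 228.2 against 51.7 to 68.6. Other sums that did not overlap were those of thick limb and distal tubule markers, at 859.7 to 1126 against 1725 to 2099 FPKM in the Cagg cohort but 2139 to 2395 against 1934 to 2079 in the KSP cohort, and of collecting duct markers, at 422.5 to 696.6 against 946.7 to 1100 in the Cagg cohort but 744.1 to 861.5 against 521.2 to 592.4 in the drug cohort. Endothelial markers were at 120.1 to 191.0 against 205.1 to 308.6 FPKM in the KSP cohort and 113.7 to 141.1 against 157.7 to 189.3 in the drug cohort, and proliferation markers at 49.94 to 65.9 against 21.41 to 27.23 and 37.89 to 79.1 against 18.94 to 23.15. The part of these shifts in the levels of the injury genes was not tested.

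Lcn2 had the largest fold change of the 10 genes in the drug cohort. The gene (ENSMUSG00000026822) lies on the minus strand at chr2:32384633-32388252 of mm10 and encodes a small protein released by stressed distal tubules and by neutrophils. The 250 bases before its start site are shown for this reason, and those of Spp1 because it was called in every cohort. Both are from the RefSeq promoter table of GRCm38.p6, Lcn2 at chr2:32387740-32387989 (minus strand) and Spp1 at chr5:104434861-104435110 (plus strand), and have no capitals because none of the motifs searched is in them. The start site of this Lcn2 entry, 32387739, lies inside the span of the gene given above, so the annotations place the start differently. Spp1 has 2 promoter entries, of which the first is shown.
Lcn2: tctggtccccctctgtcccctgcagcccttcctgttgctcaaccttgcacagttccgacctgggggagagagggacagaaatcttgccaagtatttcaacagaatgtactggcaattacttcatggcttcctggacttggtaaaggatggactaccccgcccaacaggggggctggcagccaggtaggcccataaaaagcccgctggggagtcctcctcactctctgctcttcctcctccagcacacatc
Spp1: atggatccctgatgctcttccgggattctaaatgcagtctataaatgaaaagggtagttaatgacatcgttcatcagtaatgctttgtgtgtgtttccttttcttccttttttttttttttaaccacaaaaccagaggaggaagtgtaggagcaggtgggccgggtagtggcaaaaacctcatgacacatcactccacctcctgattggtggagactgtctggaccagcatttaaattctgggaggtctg
The letters searched on both strands were CACGTG (the E-box core that TFEB binds), TGANTCA (AP-1), TTCNNNGAA (STAT) and 1 form of the NF-kB motif. Of 32851 promoters of the same length, 6.02%, 6.75%, 7.02% and 0.356% hold them, in that order. Of the 10 genes 6 matched the table, and in the promoters of Havcr1, Krt8, Krt18 and Krt20 the letters were not found in this window either. The promoters of Clu, Vcam1, Sox9 and Krt19 were not analysed here.

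With vehicle Lcn2 was at 1.06, 1.00 and 0.94 FPKM in controls of the drug cohort and at 49.5, 37.6 and 18.7 in Tsc2 KO kidneys. Every Tsc2 KO library lay more than an order of magnitude above the controls, and the log2 fold change was 5.14 ± 0.49 (SE, adjusted p = 9.68e-07). Cagg levels were 3.00, 1.95 and 3.19 FPKM in controls and 36.3, 13.8 and 11.98 in Tsc2 KO kidneys. Again the groups did not overlap, with a log2 fold change of 3.00 ± 0.78 (adjusted p = 0.0127), although without Tsc2 KO replicate 1 the adjusted p was 0.0593 and without control replicate 2 it was 0.054. The KSP cohort gave 0.90, 2.16 and 3.97 FPKM in controls and 17.1, 13.5 and 19.1 in Tsc2 KO kidneys. These groups did not overlap either, but the fit across all KSP libraries did not call the difference (log2 fold change 2.81 ± 1.33, adjusted p = 0.198), and with only the groups compared the adjusted p was 0.00499. In the DKO group, which enters the fit across all libraries, Lcn2 was at 91.6, 0.80 and 1.43 FPKM.

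With Tfeb lost as well, Lcn2 fell in the drug cohort. The vehicle-treated DKO libraries were at 0.37, 0.57 and 0.40 FPKM, all below the lowest control. Against Tsc2 KO the log2 fold change was -6.29 ± 0.53 (adjusted p = 1.26e-06), and against control it was -1.15 ± 0.52 (adjusted p = 0.197, not called). Cagg DKO kidneys had 12.2, 1.36 and 1.44 FPKM, so that replicate 1 lay within the Tsc2 KO range and the other libraries below every control. The log2 fold change of -2.06 ± 0.75 there was not called (adjusted p = 0.0998). DKO replicate 1 is a library that the count table names Tfeb KO. Its Tsc2 level, 5.26 FPKM beside 4.82 and 5.64 in the other DKO libraries, goes with the name DKO used here. The library that the count table names DKO in its place had Tsc2 at 10.24 FPKM. Values with that table's names, here and below, thus use groups that the Tsc2 levels do not bear out. With those names the log2 fold change of Lcn2 was -3.90 (adjusted p = 0.00642), close to the -3.92 without this library (adjusted p = 0.00678). With the replicate block it was -2.34 (adjusted p = 0.0492) and without the filter on low counts -2.07 (adjusted p = 1.68e-05). In the KSP cohort the high value belongs to DKO replicate 1, the library with the macrophage and neutrophil markers. With it the log2 fold change of DKO against Tsc2 KO was 0.92 ± 1.21 (adjusted p = 0.826), and without it -3.89 (adjusted p = 0.0413). With all libraries and the replicate block the value was -0.389 (adjusted p = 0.954).

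Rapamycin lowered Lcn2 in Tsc2 KO kidneys to 7.21, 2.32 and 10.2 FPKM, below all vehicle-treated Tsc2 KO libraries and partly within the range of rapamycin-treated controls at 1.83, 1.47 and 2.93. The log2 fold change was -2.42 ± 0.42 (adjusted p = 0.000441). Rapamycin-treated Tsc2 KO kidneys remained above vehicle-treated DKO kidneys in all libraries, by 3.87 ± 0.50 on the log2 scale (adjusted p = 0.00167). Lcn2 was the only one of the 10 genes called in that comparison (1 of 10, background 0.66% higher). Leaving out Tsc2 KO rapamycin replicate 3 ended the call, and so did the fit with only the groups compared. In controls and DKO kidneys the values with rapamycin were higher than with vehicle, by 1.05 ± 0.46 (adjusted p = 0.421) and 1.31 ± 0.51 (adjusted p = 0.152), neither of which was called.

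Havcr1 had the widest spread between libraries of 1 group among the 10 genes. This gene (ENSMUSG00000040405), at chr11:46735080-46779578 (plus strand), encodes a transmembrane receptor that is nearly silent in healthy tubules. Its levels were 0.03, 0.22 and 39.8 FPKM in the KSP controls, a spread of 1437 times, from 1 read in the lowest library to 1654 in the highest. They were 0.41, 18.7 and 0.13 FPKM in the vehicle-treated controls of the drug cohort, 15.2, 0.36 and 25.97 in rapamycin-treated controls and 27.9, 0.23 and 0.07 in KSP Tfeb KO kidneys. In each of these groups some libraries were near 0 and others at the level of Tsc2 KO kidneys. Over the 14 groups the median ratio of the highest to the lowest library was 6.86 for Havcr1 but 1.32 for Spp1, 1.30 for Clu and 1.28 for Krt8.

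Only the Cagg cohort gave a call for Havcr1, and with the count table's names neither the call for Tsc2 KO (3.29, adjusted p = 0.167) nor that for DKO (3.21, adjusted p = 0.56) was made. Controls were at 4.01, 1.86 and 5.39 FPKM, Tsc2 KO kidneys at 40.0, 52.3 and 13.0 and DKO kidneys at 94.9, 55.2 and 45.9. All knockout libraries of both genotypes lay above all controls, with log2 fold changes against control of 3.295 ± 0.82 (adjusted p = 0.0101) and 4.17 ± 0.84 (adjusted p = 0.00784). DKO and Tsc2 KO kidneys overlapped and the difference between them, 0.87 ± 0.73, was not called (adjusted p = 0.478, 95% interval -0.71 to 2.45). In the KSP cohort the Tsc2 KO libraries were at 39.5, 24.9 and 48.7 FPKM and the DKO libraries at 45.6, 11.8 and 3.01. Here the control at 39.8 lay within the Tsc2 KO range, and the log2 fold change of Tsc2 KO against control was 1.49 ± 1.81 (adjusted p = 0.654). In the drug cohort Tsc2 KO kidneys with vehicle were at 4.79, 37.5 and 18.5 FPKM, DKO kidneys with vehicle at 13.9, 21.5 and 21.4, Tsc2 KO kidneys with rapamycin at 18.3, 3.09 and 3.47, and DKO kidneys with rapamycin at 46.1, 29.0 and 35.2. None of the comparisons of Havcr1 in that cohort was called. Without vehicle control replicate 2, the control at 18.7, the log2 fold change of Tsc2 KO against control was 6.17 (adjusted p = 0.00706), where with it the value was 1.66 (adjusted p = 0.318). Likewise the KSP value was 8.21 without control replicate 3, the control at 39.8, but was not called.

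Spp1 was the most abundant of the 10 genes and the one called with the most similar fold change in the 3 cohorts. It (ENSMUSG00000029304) lies at chr5:104435118-104441050 (plus strand) and encodes osteopontin, a secreted phosphoprotein that binds calcium and integrins. Controls were at 1683, 1346 and 1592 FPKM in the Cagg cohort, and Tsc2 KO kidneys at 7441, 6137 and 4952. KSP values were 1184, 1412 and 1506 in controls and 7528, 5681 and 7151 in Tsc2 KO kidneys. The drug cohort values were 1186, 1209 and 1197 in controls with vehicle and 5028, 7335 and 6484 in Tsc2 KO kidneys. No Tsc2 KO library overlapped with a control in any cohort, and the log2 fold changes of 2.07 ± 0.23, 2.31 ± 0.20 and 2.39 ± 0.25 are close to each other, with adjusted p-values of 5.15e-05, 8.22e-05 and 2.26e-06.

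Spp1 in DKO kidneys was called lower than in Tsc2 KO in both KSP cohorts and not in the Cagg cohort. Cagg DKO libraries held 5882, 6393 and 3838 FPKM, of which the first and second lay within the range of Tsc2 KO and the last below it (log2 fold change -0.23 ± 0.22, adjusted p = 0.544) and above every control (1.84 ± 0.22, adjusted p = 0.000279, or 0.527 with the count table's names). KSP DKO libraries held 3142, 2568 and 3172 FPKM and vehicle-treated DKO libraries of the drug cohort 3287, 1438 and 2687. In both KSP cohorts these lay between the controls and Tsc2 KO without overlap with either. Against Tsc2 KO the log2 fold changes were -1.19 ± 0.19 (adjusted p = 0.0355) and -1.35 ± 0.24 (adjusted p = 0.000841), and against control 1.11 ± 0.19 (adjusted p = 0.0127) and 1.05 ± 0.24 (adjusted p = 0.0172). The call of DKO against Tsc2 KO in the KSP cohort was lost with the replicate number as a block (adjusted p = 0.0763) and with only the groups compared (adjusted p = 0.0785). It was also lost without any 1 of the 6 libraries compared. The call of DKO against control in the KSP cohort was lost without control replicate 1 (adjusted p = 0.0669). That of DKO against control in the drug cohort was lost without vehicle control replicate 2 or 3 or DKO vehicle replicate 1 or 3 (adjusted p up to 0.0785) and with only the groups compared (adjusted p = 0.116). Whether the effect of Tfeb loss differs between the Cagg and KSP cohorts was not tested. The cohorts also differ in age, sex and in the cells that lose the genes, which cannot be told apart.

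Rapamycin brought Spp1 in Tsc2 KO kidneys to 1790, 1583 and 2369 FPKM and in DKO kidneys to 1084, 1226 and 1194. The rapamycin-treated Tsc2 KO libraries were all below the vehicle-treated ones and all above the rapamycin-treated controls at 1187, 980 and 994. The log2 fold change was -1.71 ± 0.24 in Tsc2 KO (adjusted p = 7.93e-05), -1.08 ± 0.24 in DKO (adjusted p = 0.0161) and -0.18 ± 0.24 in controls (adjusted p = 0.778). Spp1 and Clu were the 2 genes called lower with rapamycin in DKO kidneys. That count was 1 with only the groups compared and 1 to 2 with 1 library left out.

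Clu, at chr14:65968483-65981547 (plus strand), encodes an extracellular chaperone. In the KSP cohort it was at 108, 135 and 107 FPKM in controls and 325, 290 and 337 in Tsc2 KO kidneys, and in the drug cohort at 113, 101 and 116 against 340, 484 and 210. In both cohorts the groups were apart, with log2 fold changes of 1.44 ± 0.41 (adjusted p = 0.0356) and 1.65 ± 0.21 (adjusted p = 1.97e-05). The KSP call was lost without any 1 of the 6 libraries and with the replicate block (adjusted p = 0.0582). In the Cagg cohort Tsc2 KO libraries were at 262, 88.1 and 175 FPKM around controls of 152, 136 and 150, and the difference of 0.33 ± 0.31 was not called (adjusted p = 0.451). The Cagg DKO libraries were at 91.3, 87.7 and 58.4 FPKM, of which the highest exceeded the lowest Tsc2 KO library. They were all below the controls (-0.84 ± 0.31, adjusted p = 0.107) and lower than Tsc2 KO by test (-1.17 ± 0.31, adjusted p = 0.0329), though not without Tsc2 KO replicate 1 (adjusted p = 0.154), with any 1 of the DKO libraries left out, with sex in the fit (adjusted p = 0.154), with only the groups compared (adjusted p = 0.102) or with the count table's names (-0.87, adjusted p = 0.2). Clu was the only one of the 10 called lower in that comparison (1 of 10, background 7.56%).

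Clu stood at 196, 176 and 168 FPKM in DKO kidneys of the drug cohort with vehicle. This was below all Tsc2 KO libraries (-0.94 ± 0.21, adjusted p = 0.00441, or 0.0646 with only the groups compared) and above all controls (0.71 ± 0.21, adjusted p = 0.0557). Rapamycin took it to 153, 144 and 124 FPKM in Tsc2 KO and 74.9, 68.9 and 67.4 in DKO kidneys. The log2 fold changes were -1.29 ± 0.21 (adjusted p = 0.000275) and -1.35 ± 0.21 (adjusted p = 0.00186), and their difference of 0.06 ± 0.29 was not called (adjusted p = 0.941, 95% interval -0.57 to 0.68). The rapamycin-treated DKO libraries were below every vehicle-treated control, while the controls themselves were at 102, 76.7 and 82.2 FPKM with rapamycin. Without drug the KSP DKO libraries were at 505, 172 and 136 FPKM, the first of them replicate 1.

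Vcam1 and Sox9 are expressed at low levels, and their means mostly stay under the minimum of 5 FPKM, so that they appear in the counts only where the level was reached. Vcam1 (chr3:116109949-116129688, minus strand) was at 1.63, 1.59 and 1.61 FPKM in KSP controls and 6.53, 4.32 and 6.09 in Tsc2 KO kidneys, with no overlap (log2 fold change 1.81 ± 0.53, adjusted p = 0.0438, lost without any 1 of the 6 libraries). Its adjusted p-values were 0.00396 in the Cagg cohort (1.37 ± 0.29) and 0.000606 in the drug cohort (1.73 ± 0.33), in both of which no library of Tsc2 KO overlapped with control. Vcam1 was also high in Cagg DKO kidneys, at 6.92, 4.54 and 3.60 FPKM against 1.64, 1.22 and 1.14 in controls (1.95 ± 0.29, adjusted p = 0.00129, or 0.483 with the count table's names). The DKO mean was 5.02 FPKM, and of these libraries only replicate 1 was above the minimum of 5 FPKM. Vehicle-treated DKO libraries of the drug cohort were at 1.13, 1.55 and 1.34 FPKM against 2.32, 4.86 and 3.33 in Tsc2 KO kidneys (-1.39 ± 0.32, adjusted p = 0.00558). The level with rapamycin in Tsc2 KO kidneys was 2.18, 2.04 and 1.64 FPKM, below every vehicle value but not called (-0.84 ± 0.32, adjusted p = 0.0586). KSP DKO replicate 1 held 8.95 FPKM and the other KSP DKO libraries 1.72 and 1.79, so that without replicate 1 Vcam1 was lower in DKO than in Tsc2 KO (log2 fold change -1.69, adjusted p = 0.0366), where with it the value was -0.44 (adjusted p = 0.8).

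Sox9 (chr11:112782224-112787760, plus strand) had the widest gap between Tsc2 KO and control after Lcn2 in the drug cohort. Vehicle-treated controls were at 0.17, 0.41 and 0.25 FPKM and Tsc2 KO kidneys at 3.90, 3.06 and 3.03, a log2 fold change of 3.59 ± 0.37 (adjusted p = 2.14e-06). The Cagg values were 0.51, 0.35 and 0.70 FPKM in controls and 5.62, 2.43 and 1.70 in Tsc2 KO kidneys (2.72 ± 0.51, adjusted p = 0.00187), and the KSP values 0.22, 0.37 and 0.20 against 2.04, 1.63 and 1.93 (2.81 ± 0.58, adjusted p = 0.00846). No library of one group reached into the other in any cohort. In DKO kidneys with vehicle Sox9 was at 0.37, 0.53 and 0.54 FPKM, a log2 fold change of -2.79 ± 0.35 from Tsc2 KO (adjusted p = 5e-05). With rapamycin Tsc2 KO kidneys were at 0.59, 0.60 and 0.39 FPKM (-2.65 ± 0.35, adjusted p = 4.25e-05). Between rapamycin-treated Tsc2 KO and vehicle-treated DKO kidneys the difference was 0.14 ± 0.35 (adjusted p = 0.858, 95% interval -0.60 to 0.88). In the Cagg and KSP cohorts all DKO libraries were below all Tsc2 KO libraries, at 0.47 to 1.68 and 0.18 to 1.18 FPKM, but adjusted p-values were 0.0604 and 0.235.

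Without the FPKM minimum, the counts of genes higher in Tsc2 KO were 8 in the Cagg cohort, 5 in the KSP cohort and 7 in the drug cohort, where 15.6%, 7.64% and 19.4% of all genes tested passed the adjusted p alone. The genes added were Vcam1, Sox9 and Krt20 in the Cagg cohort, Sox9 in the KSP cohort and Vcam1 and Sox9 in the drug cohort.

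Krt8 and Krt18 pair with each other to form the filaments of simple epithelia, and their genes are neighbours on chromosome 15, Krt8 at 101996698 to 102004482 on the minus strand and Krt18 at 102028180 to 102032027 on the plus strand. Of all pairs among the 10 genes they had the smallest mean absolute difference of log2 fold change, 0.34 over the 11 groups set against their own cohort's control. This difference is not scaled to the size of the changes. The mean absolute log2 fold change was only 0.471 for Krt8 and 0.779 for Krt18. Spp1 and Vcam1 differed by 0.368, with larger mean changes of 1.079 and 0.955. Krt8 was at 104, 89.3 and 92.3 FPKM in Cagg controls and 235, 126 and 143 in Tsc2 KO kidneys, at 64.4, 71.4 and 74.0 against 130, 131 and 108 in the KSP cohort, and at 70.4, 65.0 and 55.2 against 161, 152 and 142 in the drug cohort. The Tsc2 KO libraries lay above all controls each time, and the log2 fold changes were 0.88 ± 0.21 (adjusted p = 0.00844), 0.81 ± 0.23 (adjusted p = 0.0335) and 1.26 ± 0.15 (adjusted p = 1.05e-05). The KSP call was lost when any 1 of 5 of the 6 libraries was left out, with adjusted p-values of up to 0.112, and the Cagg call with sex in the fit (adjusted p = 0.0736). Krt18 was at 28.1, 26.04 and 31.3 FPKM in Cagg controls against 66.4, 47.9 and 49.99 in Tsc2 KO kidneys and at 22.9, 28.1 and 12.7 against 63.7, 60.7 and 62.4 in the drug cohort, also without overlap. Its log2 fold changes of 1.01 ± 0.28 and 1.55 ± 0.38 were called (adjusted p = 0.0187 and 0.00415), the Cagg one not with sex in the fit (adjusted p = 0.1) or without control replicate 1, control replicate 2 or Tsc2 KO replicate 1 (adjusted p up to 0.0805). That in the KSP cohort, 0.65 ± 0.30, was not called (adjusted p = 0.19).

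Both keratins fell with rapamycin in Tsc2 KO kidneys. Krt8 was at 77.9, 76.3 and 90.03 FPKM in vehicle-treated DKO kidneys, below all Tsc2 KO libraries (-0.90 ± 0.15, adjusted p = 0.00055), and Krt18 was at 26.3, 50.1 and 45.8, also below all but not called (-0.62 ± 0.37, adjusted p = 0.255). Cagg DKO kidneys had Krt8 at 117, 107.5 and 90.98 FPKM, likewise below all Tsc2 KO libraries but not called (-0.70 ± 0.21, adjusted p = 0.0558, or 0.0151 by DESeq2 and 0.042 with the replicate block), and Krt18 overlapped (-0.62 ± 0.28, adjusted p = 0.178). With the count table's names both were called lower there (Krt8 -0.91, adjusted p = 0.032, and Krt18 -1.03, adjusted p = 0.0136), and so they were without the filter on low counts (adjusted p = 0.00134 and 0.0109). KSP DKO kidneys had Krt8 at 163, 113 and 82.5 FPKM, which overlapped with Tsc2 KO (-0.04 ± 0.22, adjusted p = 0.965), and their Krt18 differed from Tsc2 KO by 0.67 ± 0.30 (adjusted p = 0.39). With rapamycin Krt8 in Tsc2 KO kidneys was at 70.5, 46.8 and 70.0 FPKM (-1.28 ± 0.15, adjusted p = 1.7e-05) and Krt18 at 26.6, 11.5 and 40.2 (-1.25 ± 0.38, adjusted p = 0.0197, or 0.0701 without Tsc2 KO rapamycin replicate 2). Rapamycin-treated DKO libraries had Krt8 at 86.9, 72.3 and 66.7 and Krt18 at 60.5, 30.8 and 38.5 FPKM, which overlapped with vehicle. In the KSP cohort Krt18 was higher in DKO than in control kidneys, at 88.0, 76.4 and 45.8 against 21.9, 27.8 and 34.4 FPKM (1.32 ± 0.30, adjusted p = 0.041). That call was lost without any 1 of 5 of the 6 libraries, DKO replicate 3 being the exception (adjusted p up to 0.178), with only the groups compared (adjusted p = 0.063) and with the replicate block (adjusted p = 0.0671). The first of these DKO libraries is replicate 1, with the immune cell markers, and the urothelium sums of the DKO libraries were 114.6, 109 and 34.8 FPKM against 40.4 to 55.3 in controls, the part of which was not tested.

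Krt19 (chr11:100140810-100148665, minus strand) and Krt20 (chr11:99428403-99438150, minus strand) are keratins of ducts and of urothelium, the lining of the renal pelvis. Krt19 was not called by edgeR with all groups of a cohort in 1 fit in any of the comparisons. DESeq2 called it higher in KSP DKO than in Tsc2 KO (log2 fold change 2.37, adjusted p = 0.0259), and so did edgeR without the filter on low counts (adjusted p = 0.0283). Without that filter it was also called in Cagg Tsc2 KO against control (adjusted p = 0.00246) and in Cagg DKO against Tsc2 KO (adjusted p = 0.0436), and with only the groups compared it was called lower with rapamycin in Tsc2 KO kidneys (-1.78, adjusted p = 0.0375). In Tsc2 KO kidneys of the 3 cohorts it was at 8.12 to 19.9, 4.69 to 15.1 and 10.8 to 13.5 FPKM, overlapping with controls at 5.37 to 8.34, 7.63 to 10.4 and 0.50 to 12.01. The summed level of 10 urothelium markers in these Tsc2 KO groups was 11.4 to 49.8, 6.07 to 62.8 and 10.1 to 52.8 FPKM, against 25.8 to 35.9, 40.4 to 55.3 and 7.10 to 66.3 in the controls. The highest Krt19 values were in KSP DKO replicate 1 and 2, at 90.7 and 34.0 FPKM, the libraries with the highest urothelium sums (115 and 109 FPKM). Low sums went with low and with high Krt19. Below a sum of 20 FPKM, a limit chosen after seeing the values, 5 Tsc2 KO libraries without rapamycin had Krt19 at 4.69 to 19.91 FPKM. The 6 such libraries of all other groups had it at 0.50 to 3.85. The control vehicle library with the lowest Krt19, 0.50 FPKM, had a sum of 7.10 FPKM, whereas Cagg Tsc2 KO replicate 1 had Krt19 at 19.9 FPKM with a sum of 12.94 and vehicle-treated Tsc2 KO replicate 1 of the drug cohort 11.89 FPKM with a sum of 10.1. In each library 0 to 4 of the 10 urothelium markers were at 0. How much urothelium a kidney sample held, and its part in these values, was not tested.

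Krt20 reached the FPKM minimum only in the Cagg DKO group. There it was at 8.60, 5.31 and 3.69 FPKM against 0.45, 0.13 and 0.21 in controls, without overlap (log2 fold change 4.52 ± 0.68, adjusted p = 0.0014, or 0.426 with the count table's names). The DKO mean of 5.87 FPKM includes replicate 1. Without that library the count of genes called higher in Cagg DKO than in control was 2 in place of 4. Cagg Tsc2 KO kidneys were at 5.62, 2.49 and 3.19 FPKM (3.91 ± 0.68, adjusted p = 0.0012), and DKO did not differ from them by test (0.61 ± 0.54, adjusted p = 0.505). The urothelium sum in these Cagg libraries was 25.8 to 35.9 FPKM in controls, 11.4 to 49.8 in Tsc2 KO and 10.7 to 53.8 in DKO. The part of urothelium in the Krt20 values was not tested. Krt20 in the drug cohort was at 3.27, 3.05 and 0 FPKM in controls and 2.13, 1.99 and 2.71 in Tsc2 KO kidneys, which is no separation (0.11 ± 0.96, adjusted p = 0.943). The KSP values were 2.326, 0.40 and 0.52 FPKM in controls and 2.329, 5.42 and 3.67 in Tsc2 KO kidneys, where the lowest knockout and the highest control nearly met (1.82 ± 0.77, adjusted p = 0.15), and 5.04, 5.14 and 0.72 in DKO.

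**Figure D2:**
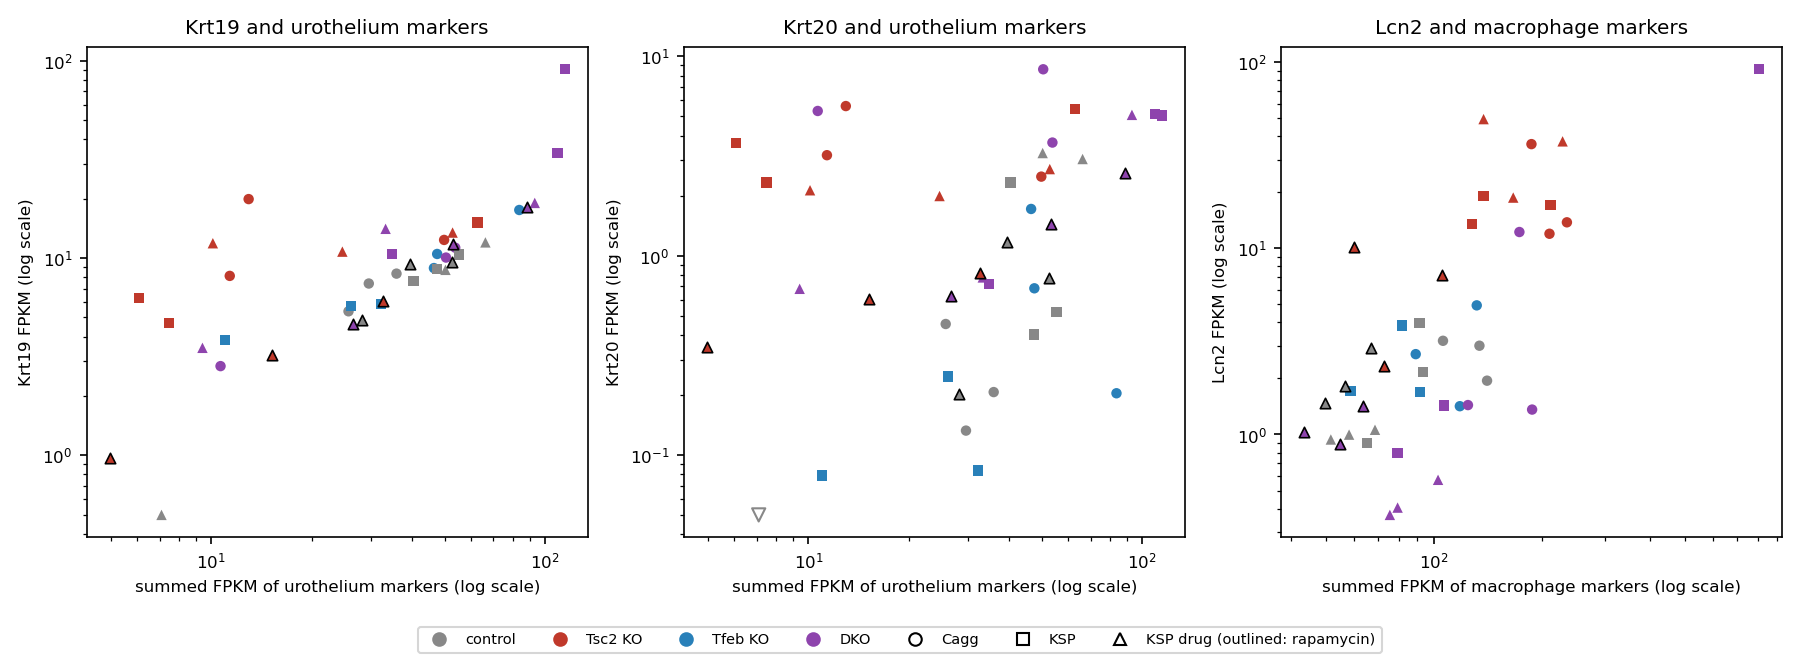
Krt19 and Krt20 against the summed FPKM of 10 urothelium markers, and Lcn2 against that of 12 macrophage markers, 1 point per library on log axes (colours as before, circles Cagg, squares KSP, triangles KSP drug cohort, outlined with rapamycin; the open triangle is a Krt20 value of 0). KSP DKO replicate 1 is at the far right of the Lcn2 panel, at 805 FPKM of macrophage markers and 91.6 FPKM of Lcn2, and KSP DKO replicates 1 and 2 are at the top right of the Krt19 panel.

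**Figure D3:**
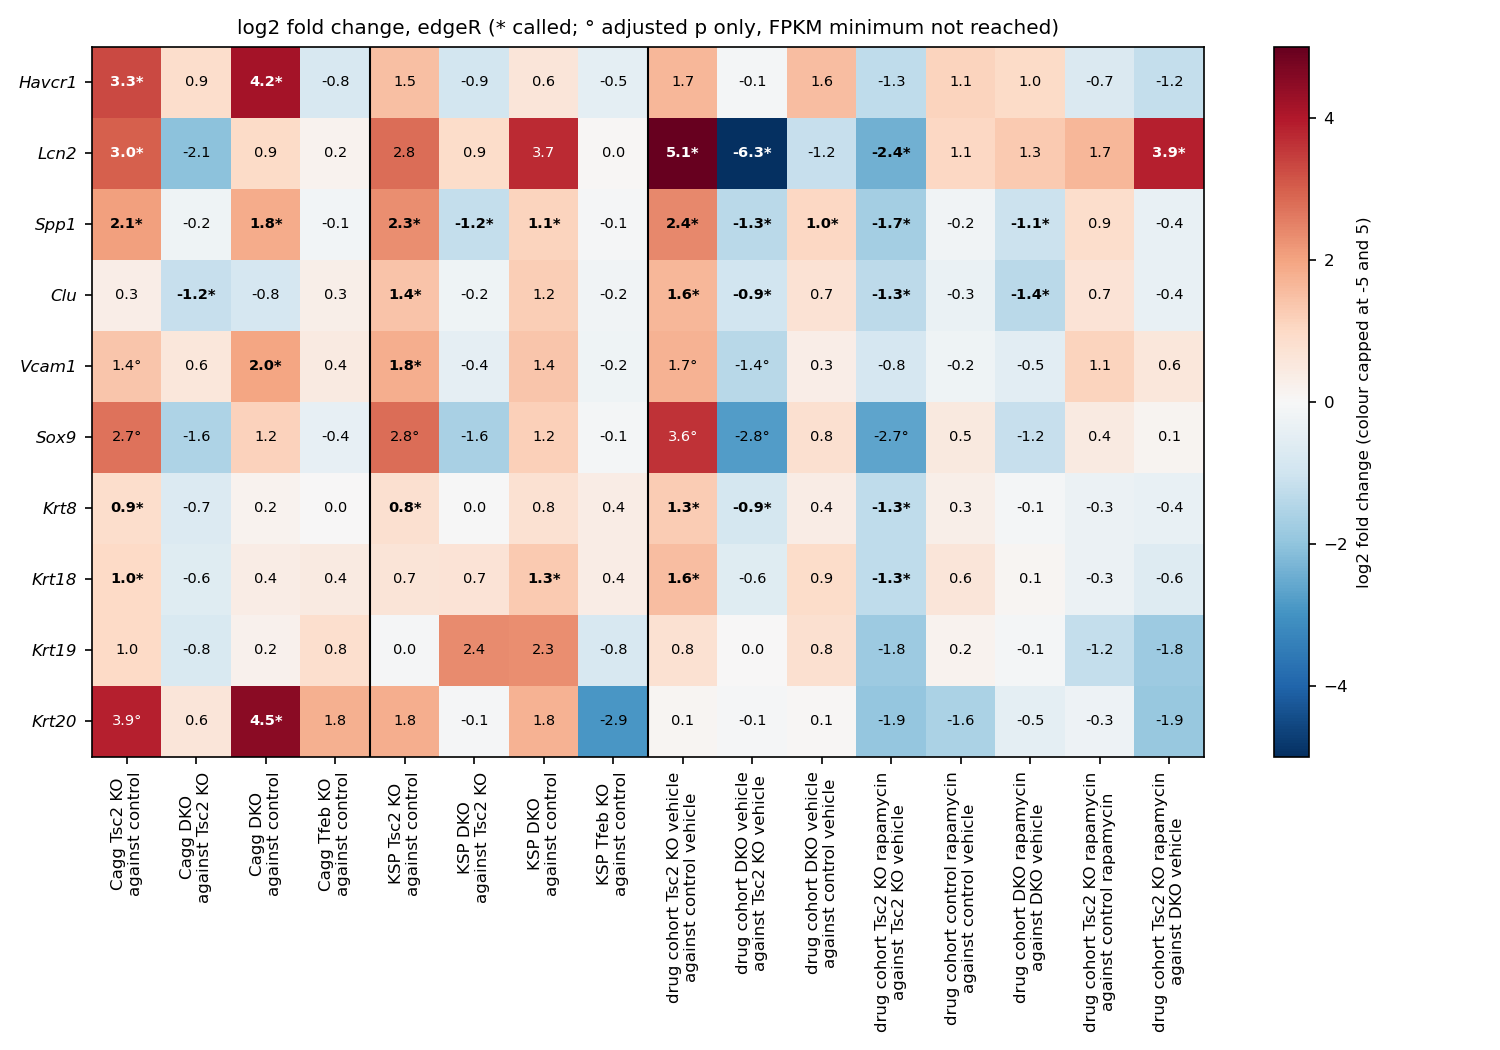
Log2 fold changes of the 10 genes in the 16 comparisons of 2 groups, by edgeR with all groups of a cohort in 1 fit. An asterisk marks a call and a small circle an adjusted p of 0.05 or lower without the FPKM minimum; vertical lines separate the cohorts. Spp1 and Krt8 have an asterisk in each of the 3 Tsc2 KO comparisons.

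The second question is what Tfeb loss does to these genes in Tsc2-deficient kidneys. In the drug cohort with vehicle, 4 of 10 were called lower in DKO than in Tsc2 KO (background 12.6%), namely Lcn2, Spp1, Clu and Krt8. The median log2 fold change of the 10 was -0.92, beside 0.01 over all genes tested, and 7 of 10 had all DKO libraries below all Tsc2 KO libraries (background 19.3%). In the same libraries proximal tubule markers summed to 7363 to 11140 FPKM in DKO against 1568 to 2614 in Tsc2 KO kidneys, and macrophage markers to 75.4 to 102.7 against 137.5 to 228.2, with 18 of 20 called higher (background 16.9%) and 5 of 12 called lower (background 12.6%). Thick limb and distal tubule markers summed to 2505 to 3079 against 1093 to 2048 FPKM, and proliferation markers to 27.6 to 29.6 against 37.9 to 79.1. The part of these shifts was not tested. The Cagg cohort gave 1 of 10 (Clu, background 7.56%) and the KSP cohort 1 of 10 (Spp1, background 0.169%). Proximal tubule sums in DKO against Tsc2 KO kidneys were 9051 to 10970 against 2393 to 7156 FPKM in the Cagg cohort. In the KSP cohort they were 9767 to 10740 against 3652 to 7095. Thick limb and distal tubule sums in the Cagg cohort were 1338 to 1475 against 859.7 to 1126 FPKM. In the KSP cohort collecting duct sums were 899.1 to 1146 against 567.7 to 728.0 FPKM, and proliferation sums 33.14 to 49.45 against 49.94 to 65.9. Against control, 4 of 10 were higher in Cagg DKO kidneys (Havcr1, Spp1, Vcam1 and Krt20, background 10.2%), 2 of 10 in KSP DKO (Spp1 and Krt18, background 2.33%) and 1 of 10 in DKO with vehicle (Spp1, background 5.37%). The Cagg count against control was 2 without DKO replicate 1 and 0 with the count table's names. The KSP count ranged from 0 without control replicate 1 to 4 without DKO replicate 3. It was 1 without each of the other libraries, with only the groups compared and with the replicate block. By DESeq2 and without the filter on low counts the KSP count was higher, as given in the closing section. Against control, proximal tubule sums in DKO libraries were lower without overlap. They were 9051 to 10970 against 16140 to 18010 FPKM (Cagg), 9767 to 10740 against 16130 to 19500 (KSP) and 7363 to 11140 against 14320 to 18690 (drug cohort, vehicle). Thick limb and distal tubule sums were lower in the Cagg cohort (1338 to 1475 against 1725 to 2099) but higher in both KSP cohorts. The part of these marker shifts was not tested. DKO against control and DKO against Tsc2 KO share the DKO libraries, so they are no independent comparisons.

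Loss of Tfeb alone gave no call among the 10 genes in either cohort (0 of 10 each, background 0.0128% higher and 0.0128% lower in the Cagg cohort, 0% in the KSP cohort). By edgeR 1 gene in the Cagg cohort (Krt20, 1.77 ± 0.71) and 1 in the KSP cohort (Krt20, -2.92 ± 0.93) had an unadjusted p of 0.05 or lower, in opposite directions (background 4.26% higher and 3.25% lower, in that order). DESeq2 called 0 higher in both. Its count took higher genes only, so it does not cover the lower Krt20 of the KSP cohort. The Cagg comparison sets 3 female against 3 male mice. The difference between the Tfeb effects with and without Tsc2 was called for 0 of 10 in either cohort by edgeR (background 1.63% higher and 0.504% lower in the Cagg cohort, 0% in the KSP cohort), with 4 genes at an unadjusted p of 0.05 or lower in the Cagg cohort, all negative (background 7.07%), and 3 in the KSP cohort, 2 positive and 1 negative (background 4.83% and 4.97%). DESeq2 gave 1 call in each (background 7.9% and 1.05% in either direction).

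The final question is what rapamycin does. All 10 genes had a lower fitted level with rapamycin than with vehicle in Tsc2 KO kidneys, and 5 of 10 were called lower (Lcn2, Spp1, Clu, Krt8 and Krt18, background 17.3%). Of the 10, 9 had all rapamycin libraries below all vehicle libraries (background 20.6%), Havcr1 being the exception. The median log2 fold change was -1.504, beside -0.02 over all genes tested. In DKO kidneys 2 of 10 were called lower (Spp1 and Clu, background 4.7%). This count was 1 with only the groups compared or when any 1 of 5 of the 6 libraries compared was left out. In the same DKO libraries proximal tubule markers summed to 15420 to 15630 FPKM with rapamycin against 7363 to 11140 with vehicle. Macrophage markers summed to 43.5 to 63.4 against 75.4 to 102.7, and proliferation markers to 18.1 to 23.1 against 27.6 to 29.6. The part of these shifts was not tested. In controls 0 of 10 were called lower (background 0.0664%) by edgeR and 0 by DESeq2, whose count took lower genes only. There 1 gene, Lcn2, had an unadjusted p of 0.05 or lower by edgeR, higher with the drug (background 5.63%). Rapamycin-treated Tsc2 KO kidneys against rapamycin-treated controls gave 0 of 10 higher by edgeR (background 0.688%), with 4 genes higher at an unadjusted p of 0.05 or lower (background 7.43%), and 2 by DESeq2 (background 1.72%). The comparisons of DKO and of rapamycin with vehicle-treated Tsc2 KO kidneys share these 3 libraries.

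The rapamycin effect differed between Tsc2 KO and control kidneys for 5 of 10 genes by the interaction term (background 12.5% lower), or 3 of 10 without control vehicle replicate 3. They were Lcn2 (-3.47 ± 0.62, adjusted p = 0.00114), Krt18 (-1.85 ± 0.53, adjusted p = 0.0214), Krt8 (-1.56 ± 0.21, adjusted p = 0.000151), Spp1 (-1.53 ± 0.34, adjusted p = 0.00461) and Clu (-0.96 ± 0.30, adjusted p = 0.0306). It differed between Tsc2 KO and DKO kidneys for 2 of 10 (background 2.93% lower), Lcn2 (-3.73 ± 0.66, adjusted p = 0.0034) and Krt8 (-1.17 ± 0.21, adjusted p = 0.0041). For Spp1 that difference was -0.63 ± 0.33 and not called (adjusted p = 0.29). The marker sums moved along in the same libraries. In rapamycin-treated against vehicle-treated Tsc2 KO kidneys proximal tubule markers summed to 12190 to 13840 against 1568 to 2614 FPKM. Macrophage markers summed to 59.8 to 105.5 against 137.5 to 228.2 FPKM. Thick limb and distal tubule markers were at 2491 to 2999 against 1093 to 2048 FPKM, and proliferation markers at 21.99 to 24.61 against 37.89 to 79.1. The part of these shifts was not tested.

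**Figure D4:**
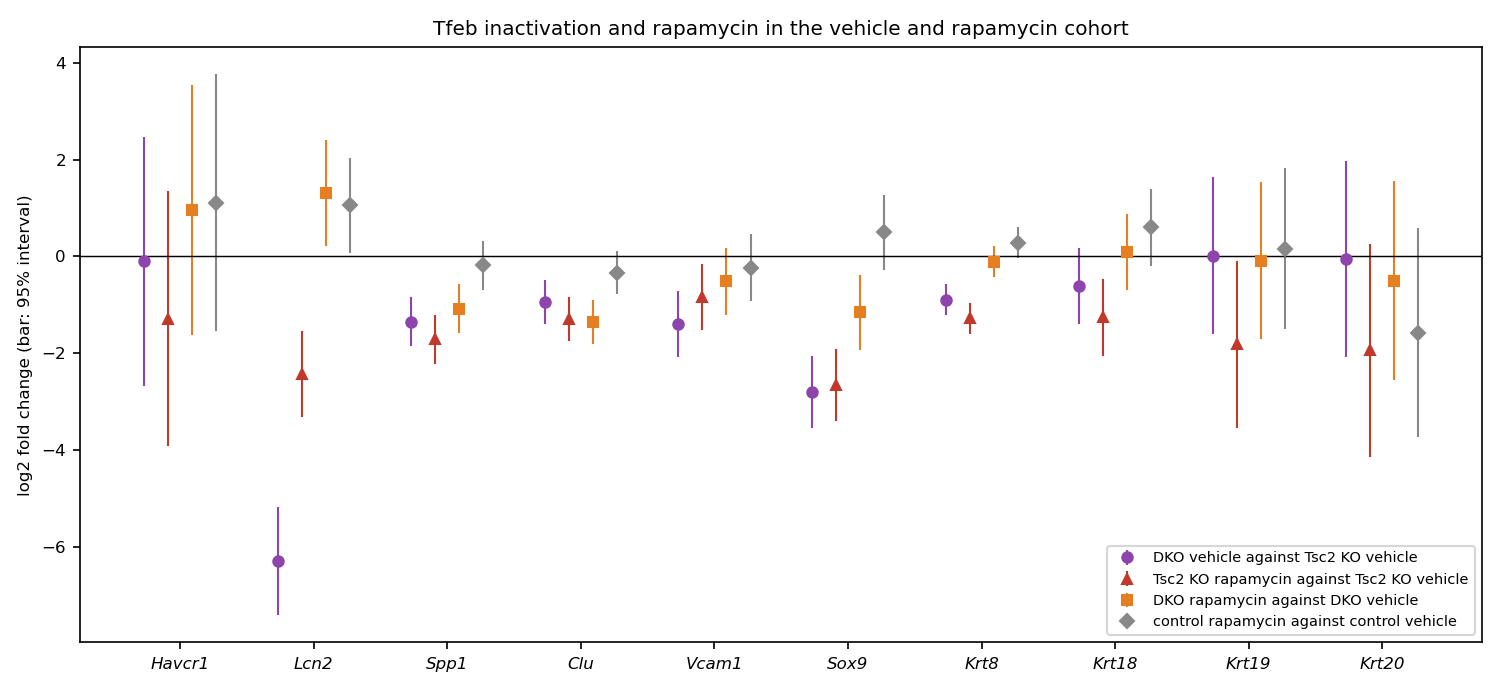
Log2 fold changes with 95% intervals of the 10 genes in the KSP drug cohort for Tfeb loss in Tsc2 KO kidneys (purple circles) and for rapamycin in Tsc2 KO (red triangles), DKO (orange squares) and control kidneys (grey diamonds). Lcn2 is at -6.29 with Tfeb loss and -2.42 with rapamycin, and the intervals of Havcr1, Krt19 and Krt20 are the widest.

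A wider list of 50 genes of tubular injury and repair was counted beside the 10, including Krt7, Vim, Cd44, Timp1, Mmp7, fibrinogen chains, growth factors and stress genes. In Tsc2 KO against control 26 of 50 were called higher and 0 lower in the Cagg cohort, 13 and 0 in the KSP cohort, and 26 and 1 in the drug cohort. Of the 50, 40, 39 and 42 reached the FPKM minimum. The background was 23%, 9.42% and 23.8% higher and 15.5%, 8.74% and 24.6% lower. Median log2 fold changes were 1.15, 0.61 and 1.10. The largest changes were those of fibrinogen Fgb in the Cagg cohort (5.76 ± 0.47, adjusted p = 7.8e-06), of the protease inhibitor Timp1 in the KSP cohort (5.07 ± 1.13, adjusted p = 0.012) and of the matrix protease Mmp7 in the drug cohort (7.12 ± 0.95, adjusted p = 2.62e-05). The gamma chain of fibrinogen, Fgg, was among the 4 largest in each cohort, at 5.18 ± 0.26, 4.30 ± 0.63 and 3.86 ± 0.43 on the log2 scale. In DKO against Tsc2 KO 9 were lower (background 7.56%) and 3 higher (background 6.91%) in the Cagg cohort, 1 lower (background 0.169%), which was the cyclin Ccnd1 at -1.09 ± 0.17 (adjusted p = 0.0355), and 0 higher in the KSP cohort, and 19 lower (background 12.6%) and 1 higher (background 16.9%) in the drug cohort. The chemokine Cxcl10 went the other way in the Cagg cohort, at 2.58 ± 0.32 above Tsc2 KO (adjusted p = 0.000827). Rapamycin in Tsc2 KO kidneys gave 24 lower (background 17.3%) and 1 higher (background 21.2%), led by Nupr1, a stress-induced chromatin factor (-3.22 ± 0.64, adjusted p = 0.00131). In controls it gave 0 in either direction (background 0.0664% lower and 0% higher), and in DKO kidneys 7 lower (background 4.7%) and 1 higher (background 2.73%).

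Among 8865 other genes, those with the pattern nearest to each of the 10 were found by the mean absolute difference of log2 fold change over the same 11 groups. The nearest to Spp1 were Tlr2 (0.17) and Hexa (0.21), to Clu Trpv5 (0.17) and Epb41l2 (0.26), to Krt8 Sbno2 (0.13) and Cdc42ep2 (0.14), and to Krt18 Fam174b (0.13) and Serinc2 (0.19). Vcam1 was nearest to Trp53inp1 (0.27) and H2-DMa (0.28), and Sox9 to Chaf1b (0.28) and Dpysl3 (0.41). The other members had no gene as near, with 0.44 for Krt19 and Thy1, 0.64 for Havcr1 and 1700016C15Rik, 0.78 for Krt20 and Sprr1a and 0.90 for Lcn2 and Serpina10. The difference is not scaled to the size of the changes. The mean absolute log2 fold change was 0.789 for Krt19, 1.642 for Havcr1, 1.882 for Krt20 and 1.901 for Lcn2. It was 0.471 for Krt8, 0.725 for Clu, 0.779 for Krt18, 0.955 for Vcam1, 1.079 for Spp1 and 1.322 for Sox9. These are descriptions over groups that share controls.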

How the data were processed

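Whole-kidney poly-A RNA of 42 mice was sequenced from libraries without strand information, so reads of a gene and of an antisense partner cannot be told apart. For each of 3 cohorts the authors deposited a table of counts (whole-number reads per gene) and an FPKM table, scaled to the length of each gene and to library size. The submitters' processing notes name STAR 2.6.1d, HISAT2 2.0.5, featureCounts 1.5.0-p3, DESeq2 1.20.0 and mm10, without roles.

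The 10 members, the lists and the rules were chosen with earlier results of these data known. Groups followed the labels. In the Cagg cohort 4 columns carry other names in the count table than in the FPKM table, 2 of them another genotype, and the FPKM names were used. The library named DKO replicate 1 by FPKM and Tfeb KO by counts had Tsc2 at 5.26 FPKM, between the other DKO libraries at 4.82 and 5.64, and the library named Tfeb KO replicate 3 by FPKM and DKO by counts had it at 10.24, near the other Tfeb KO libraries at 9.34 and 9.06, so the targeted gene goes with the FPKM names. Counts were tested with edgeR 4.0.16 in R 4.3.3 (filterByExpr, TMM, glmQLFit and glmQLFTest, all groups of a cohort in 1 fit, no covariate), which tested 16348, 16631 and 17027 genes, with all 10 members among them. The Benjamini-Hochberg adjustment covered all of these. Calls required an adjusted p not above 0.05 with an average FPKM of 5 or more in 1 group compared. Background is the share of all genes reaching that level that were called in the named direction, and for groups without overlap and for an adjusted or unadjusted p alone the share of all genes tested. All 10 members were named in the text. Of the wider list, at most the 4 called genes with the largest change were named. The scripts were tested on simulated counts. Replicates are separate samples in the labels, so p-values measure the spread between these samples. Replicate numbers paired the libraries by the check only in KSP DKO against Tsc2 KO, where deviations of same-numbered libraries correlated at 0.237, 0.248 and 0.187 across genes. Their pairing comes from the data, since the labels state no shared litter or day. Alternatives were DESeq2 1.42.0, only the groups compared, RLE scaling, no filter, no FPKM minimum, a replicate block, sex (Cagg only, as all KSP mice were female), the count table's names and each library left out.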

Additional observations from a re-analysis of the deposited data

Results flagged for a closer look

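Some effects of rapamycin differed between genotypes by the test of the difference itself, the interaction term of edgeR, with 3 libraries a group. Between Tsc2 KO and control kidneys the rapamycin effect differed by -3.47 on the log2 scale for Lcn2, -1.53 for Spp1, -0.96 for Clu, -3.15 for Sox9, -1.56 for Krt8 and -1.85 for Krt18. Sox9 passed the adjusted p (0.000495) but stayed below the FPKM minimum. Between Tsc2 KO and DKO kidneys it differed by -3.73 for Lcn2 and -1.17 for Krt8. A test for single outlying libraries was not run, since every group has 3 libraries.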

How the results depend on the processing

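With 3 libraries a group, single libraries decide many calls. Scaling by RLE changed no count by more than 1.5 times.

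The number of genes called higher in Cagg Tsc2 KO than in control was 5, and it was 8 without the FPKM minimum, 3 with sex in the fit and 3 to 5 with 1 library left out. The number called lower in Cagg DKO than in Tsc2 KO was 1, and it was 2 by DESeq2, 0 with only the groups compared, 5 without the filter on low counts, 0 with sex, 3 with the count table's names and 0 to 2 with 1 library left out. Cagg DKO against control gave 4 genes, 0 with the count table's names and 2 to 4 with 1 library left out. The Cagg interaction of Tsc2 and Tfeb gave 0, but 1 by DESeq2, 4 without the filter, 2 with the count table's names and 0 to 1 with 1 library left out. With those names Havcr1 (-0.082), Vcam1 (-0.009) and Krt20 (-0.106) changed sign in Cagg DKO against Tsc2 KO, all without a call in either case, and Havcr1 in Tsc2 KO against control lost its call (3.29, adjusted p = 0.167).

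KSP Tsc2 KO against control gave 4 genes, and 1 to 2 with 1 library left out. KSP DKO against Tsc2 KO gave 1, but 0 with only the groups compared and 0 to 2 with 1 library left out. KSP DKO against control gave 2, but 5 by DESeq2, 1 with only the groups compared, 4 without the filter and 0 to 4 with 1 library left out. The KSP interaction gave 0 and 1 by DESeq2. In the drug cohort DKO against control with vehicle gave 1, but 2 by DESeq2, 2 without the filter and 0 to 1 with 1 library left out. Rapamycin in DKO gave 2, but 1 with only the groups compared and 1 to 2 with 1 library left out. Tsc2 KO against control, both with rapamycin, gave 0, but 2 by DESeq2, 1 without the filter and 0 to 1 with 1 library left out. Tsc2 KO with rapamycin against DKO with vehicle gave 1, but 0 with only the groups compared and 0 to 1 with 1 library left out. The interaction of rapamycin and Tsc2 gave 5, and 3 to 5 with 1 library left out.

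Some log2 fold changes without a call changed sign with 1 library left out. They ranged from -0.099 to 0.651 for Clu in Cagg Tsc2 KO against control and from -0.709 to 0.250 for Krt19 in KSP Tsc2 KO against control. In KSP DKO against Tsc2 KO they ranged from -3.888 to 1.492 for Lcn2, -1.039 to 0.092 for Clu, -0.329 to 0.165 for Krt8 and -0.390 to 0.419 for Krt20. In the drug cohort they ranged from -0.479 to 0.558 for Krt20 in Tsc2 KO against control and, in DKO against Tsc2 KO, from -0.568 to 0.687 for Havcr1, -0.459 to 0.453 for Krt19 and -1.639 to 0.366 for Krt20. The cause was not tested.

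With a replicate block the counts were 3 in Cagg DKO against Tsc2 KO, 0 in KSP DKO against Tsc2 KO and 1 in KSP DKO against control, and no other count moved by more than 1.5 times. With the replicate block Clu in KSP Tsc2 KO against control was no longer called (1.43, adjusted p = 0.0582). Lcn2 in KSP DKO against Tsc2 KO was -0.389 with the replicate block, Krt20 in drug cohort Tsc2 KO against control -0.046 and Havcr1 in drug cohort DKO against Tsc2 KO 0.023, each with the sign changed and without a call. A fit with sex was not run in the KSP cohorts, where all mice were female. Genes at a few reads, such as Havcr1 and Krt20 in some controls, are limited by counting.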
